A study of Mus musculus with 51 samples.

Results

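The HoxC genes lie in 1 of the mouse's Hox clusters, and their transcripts were followed here through early limb development. The cluster's 9 homeobox genes, Hoxc4, Hoxc5, Hoxc6, Hoxc8, Hoxc9, Hoxc10, Hoxc11, Hoxc12 and Hoxc13, were looked up among the array's gene symbols, and 7 of the 9 had a probe set that names no other gene. Hoxc11 and Hoxc12 were not analysed here. The 7 genes were measured by 11 of the 34958 probe sets with 1 gene symbol, and are 7 of the 18194 genes tested. Hoxc5 and Hoxc6 have 3 probe sets each and the others 1, and the log2 values of a gene's probe sets were averaged. RNA of whole forelimb buds, whole hindlimb buds and intact embryos of FVB mice, with no mutation or treatment, was hybridised to 51 Affymetrix whole-genome arrays, 1 embryo per sample. Forelimb was sampled at 5 daily stages from E9.5 to E13.5 with 3, 5, 4, 5 and 5 arrays, hindlimb from E10.5 to E13.5 with 4, 5, 5 and 5, and whole embryo at all 5 stages with 2 arrays each. The limb buds of a stage came from the same litter, so that litter and stage cannot be told apart, and p-values between limbs measure the spread between littermates.

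Hox genes encode homeodomain transcription factors that give cells their position along the body axis, and within a cluster the order of the genes on the chromosome follows the order of their expression along that axis, from head to tail. The forelimb arises at a more anterior level than the hindlimb, and in the embryonic trunk the HoxC genes at the Hoxc4 end of the cluster are active from more anterior levels than those at the Hoxc13 end. In limb buds the genes of the HoxA and HoxD clusters pattern the skeleton along the limb, whereas genes of the HoxC cluster are known for expression that differs between fore- and hindlimb. In RNA of whole limb buds, fewer cells that carry a transcript and less of it per cell cannot be told apart.

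In the RefSeq annotation of GRCm38.p6 the cluster runs over 115726 bases of the forward strand of chromosome 15, from 102921131 to 103036856, in the order Hoxc13, Hoxc12, Hoxc11, Hoxc10, Hoxc9, Hoxc8, Hoxc6, Hoxc5 and Hoxc4. Hotair, Mir196a-2, Mir615 and a pair of further long non-coding RNA genes lie inside this span, and none of them had a probe set with 1 symbol. Hoxc13 occupies 102921131 to 102928814, Hoxc10 102966796 to 102971898, Hoxc9 102977032 to 102984444 and Hoxc8 102990539 to 102994275. Hoxc6 occupies 102998226 to 103011882, Hoxc5 103014008 to 103017429 and Hoxc4 103018097 to 103036856. A promoter window was given by RefSeq for 1 of the 7 genes, Hoxc4, whose signal separated the limbs at every stage. The window, at chr15:103034145-103034444 on the forward strand (GRCm38.p6), starts well inside the annotated span of Hoxc4, and the capitals mark its last 50 bases, which follow the transcript start.
Hoxc4: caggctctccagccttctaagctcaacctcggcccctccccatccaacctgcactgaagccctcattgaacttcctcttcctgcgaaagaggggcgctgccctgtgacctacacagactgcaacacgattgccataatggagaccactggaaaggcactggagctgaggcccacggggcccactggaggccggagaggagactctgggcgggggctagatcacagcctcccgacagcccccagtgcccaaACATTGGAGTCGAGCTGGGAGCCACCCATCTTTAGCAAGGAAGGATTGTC
This window holds 60.3% G and C. The letters AGGTCA, a binding motif of retinoic acid receptors, match on either strand at 1 place, base 105 of the window, and are found in 16.3% of the 32851 RefSeq windows of this length. The homeodomain core TAATTA has no match, and is found in 5.29% of the windows.

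The limb labels were set against 4 genes that mark limb type. Pitx1, Tbx4 and Isl1, known in hindlimb specification, and Tbx5, required for the forelimb bud, were each called in all 4 comparisons of the limbs at the same stage, the first 3 higher in hindlimb and Tbx5 higher in forelimb. A gene was called where it changed at least 2-fold at a limma adjusted p under 0.001. The 8 limb mesenchyme markers had a mean log2 level of 8.57 to 10.02 in the limb arrays and 6.46 to 7.76 in whole embryo, and the 10 neural markers 4.16 to 7.45 in limb against 8.07 to 11.12 in whole embryo. On 2 arrays the title and the other labels name different groups. The array titled hindlimb E11.5 replicate 5 is elsewhere labelled forelimb E12.5, and had Hoxc10 at 10.32 and Pitx1 at 10.65, against 4.40 to 4.91 and 5.02 to 5.60 in the titled E12.5 forelimb arrays. The array titled forelimb E12.5 replicate 5 is elsewhere labelled hindlimb E12.5, and had Hoxc10 at 4.40 and Tbx5 at 9.77, against 9.84 to 10.44 and 5.76 to 6.27 in the E12.5 hindlimb. Titles were used throughout. A set of 13 arrays, those of whole embryo and of forelimb at E9.5, differed from the other 38 in a spiked control (Bacillus dap, log2 10.60 to 13.04 against 2.68 to 3.59) and in the excess of 3′ over 5′ Gapdh signal (1.48 to 2.85 against -0.10 to 0.16). The 2 limbs at one stage from E10.5 on lie within the 38 arrays, whereas every comparison with whole embryo from E10.5 on, and every comparison of the E9.5 forelimb with a later limb, crosses the 2 sets, and the part of that difference in the results was not tested.

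The comparison of hindlimb with forelimb asked which genes tell serially homologous limbs apart. Apart from Hoxc13, the HoxC genes divided by their place in the cluster. Hoxc4, Hoxc5 and Hoxc6 had the lower mean in hindlimb at all 4 stages, and Hoxc8, Hoxc9 and Hoxc10 had the higher mean. Hoxc13, at the far end, also had the lower mean in hindlimb at all 4 stages (-0.76 to -0.02). Neither Hoxc8 nor Hoxc13 was called between limbs of the same stage. Higher in hindlimb were 2 of the 7 genes (Hoxc9 and Hoxc10) at E10.5, E11.5 and E12.5, where 0.148%, 0.0989% and 0.044% of all genes were called in that direction, and 1 (Hoxc10) at E13.5, where 0.0495% were. Higher in forelimb were 2 of the 7 (Hoxc4 and Hoxc5) at E10.5 and E13.5, against 0.418% and 0.236% of all genes, and 3 (with Hoxc6) at E11.5 and E12.5, against 0.313% and 0.462%. No count changed when any single array was left out. With the 2 doubtful arrays grouped by the labels other than the title, the counts fell from 4, 5, 5 and 3 to 2, 2, 0 and 1, and with both left out they stayed at 4, 5, 5 and 3. Fitted on the limbs of 1 stage alone, 3 genes passed at E10.5, without Hoxc4 (adjusted p = 0.00175), and 3 at E11.5, without Hoxc4 (adjusted p = 0.00173) and Hoxc6 (adjusted p = 0.00605).

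**Figure D1:**
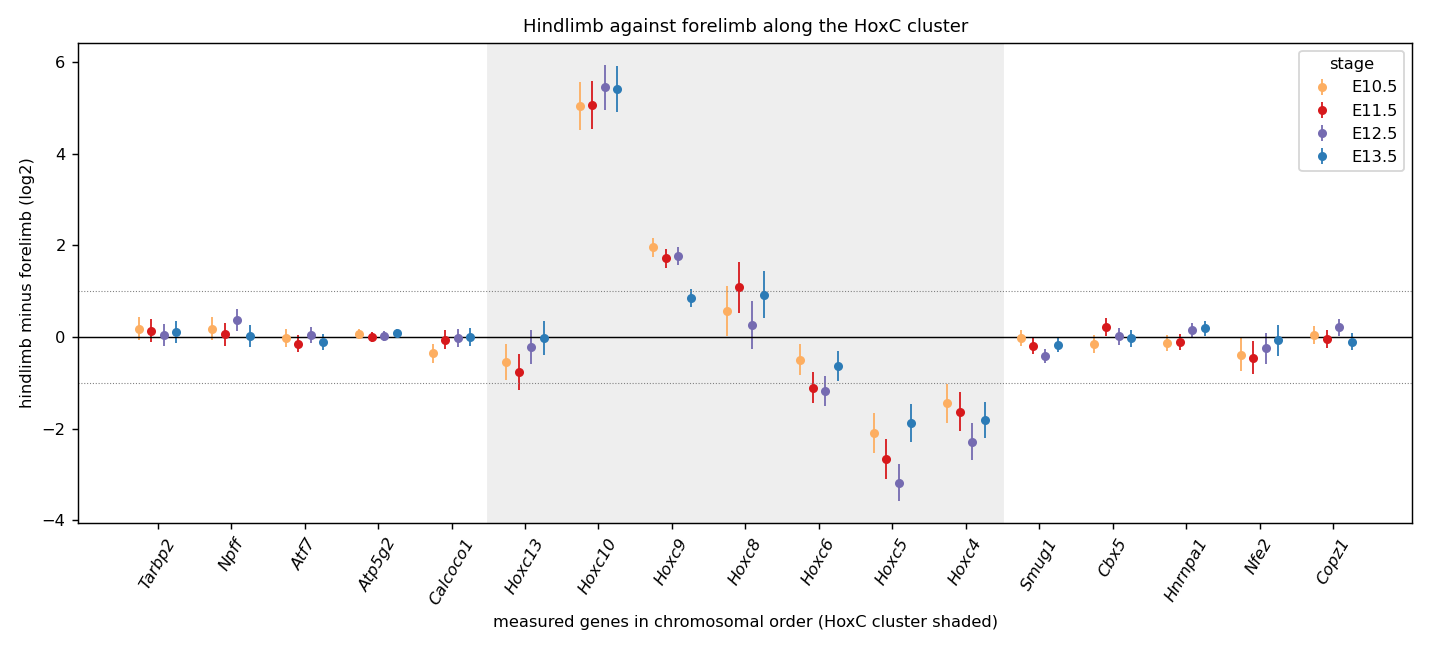
Hindlimb minus forelimb at the same stage (log2 difference with 95% confidence interval, dotted lines at a 2-fold change) for the 7 measured HoxC genes and the 5 nearest measured genes on either side, in chromosomal order, with 1 colour per stage. The HoxC genes run from 5.05 to 5.46 at Hoxc10 down to -1.88 to -3.17 at Hoxc5, while the 10 outer genes stay between -0.45 and 0.37.

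The 10 nearest measured genes outside the cluster were not called in any of these comparisons. At each stage at most 0.148% of all genes were called higher in hindlimb and at most 0.462% lower. With shares this low, 0 calls among 10 genes is no result about the neighbours. Tarbp2, Npff, Atf7, Atp5g2 and Calcoco1 beyond Hoxc13, and Smug1, Cbx5, Hnrnpa1, Nfe2 and Copz1 beyond Hoxc4, had differences of -0.45 to 0.37 on the log2 scale over 40 tests. The lowest adjusted p among them, 0.000263, was that of Smug1 at E12.5, whose difference of -0.41 ± 0.08 (SE) was under the fold threshold.

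Hoxc4, whose protein acts at anterior levels of the trunk, was lower in hindlimb at all 4 stages. At E10.5 its log2 levels in forelimb were 8.08, 8.38, 8.22, 8.78 and 8.09, and in hindlimb 6.64, 6.78, 7.37 and 6.64. At E12.5 the 5 forelimb arrays read 8.81, 7.80, 8.04, 8.49 and 8.92 and the 5 hindlimb arrays 6.36, 6.21, 6.10, 5.92 and 6.06. Every forelimb array lay above every hindlimb array, here as at E11.5 and E13.5. The hindlimb difference was -1.45 ± 0.21 (SE) at E10.5 (adjusted p = 2.5e-06) and -1.63 ± 0.21 at E11.5 (adjusted p = 6.33e-07). It reached -2.28 ± 0.20 at E12.5 (a fold change of 4.86, adjusted p = 2.29e-11) and was -1.81 ± 0.20 at E13.5 (adjusted p = 1.25e-08). The highest level of all groups was that of the E9.5 forelimb, at 9.67 ± 0.45 (SD, n = 3).

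Hoxc5, the next gene of the cluster, showed the widest forelimb excess of the 7 from E10.5 to E12.5. At E13.5 its difference of -1.88 was close to the -1.81 of Hoxc4. The forelimb levels of Hoxc5 at E12.5 were 9.14, 8.13, 8.75, 8.89 and 9.25, and its hindlimb levels 5.69, 5.67, 5.70, 5.56 and 5.68. At E11.5 the forelimb arrays read 8.44, 8.43, 8.15 and 8.30 and the hindlimb arrays 6.92, 5.50, 5.29, 5.20 and 5.50. The groups did not overlap at any stage, and 1 hindlimb array, E11.5 replicate 1, stood well above its group. The difference was -2.08 ± 0.22 at E10.5 (adjusted p = 1.01e-09), -2.65 ± 0.22 at E11.5 (adjusted p = 4.12e-12). It reached -3.17 ± 0.20 at E12.5 (a fold change of 9.02, adjusted p = 1e-15) and was -1.88 ± 0.20 at E13.5 (adjusted p = 1.04e-08). Without E11.5 replicate 1 the E11.5 difference was -2.96.

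Hoxc6, whose anterior border in the trunk of vertebrates lies near the level of the forelimb, differed less. At E11.5 its forelimb levels were 7.59, 7.51, 7.45 and 7.35 and its hindlimb levels 7.09 on replicate 1 and at most 6.36 on the other 4 arrays, and at E12.5 the ranges were 7.07 to 7.85 and 6.07 to 6.45. The groups were apart at both stages, by differences of -1.10 ± 0.17 (adjusted p = 1.73e-05) and -1.18 ± 0.16 (adjusted p = 9.57e-07). At E10.5 the ranges of 7.49 to 7.63 and 6.80 to 7.53 overlapped through 1 hindlimb array, replicate 3, at 7.53. The differences of -0.49 ± 0.17 at E10.5 (adjusted p = 0.0451) and -0.63 ± 0.16 at E13.5 (adjusted p = 0.00863) did not pass. At E13.5 the arrays nevertheless did not overlap, with 6.65 to 7.24 in forelimb and 5.90 to 6.44 in hindlimb.

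The probe sets of Hoxc5 gave the same limb difference, whereas those of Hoxc6 did not. Each of the 3 Hoxc5 probe sets was called lower in hindlimb at all 4 stages, with differences of -2.09, -2.99, -3.51 and -2.11 at 1439885_at, -2.40, -2.98, -3.59 and -2.15 at 1450832_at, and -1.75, -1.98, -2.42 and -1.38 at 1456301_at. Of the Hoxc6 probe sets, 1427361_at and 1427362_x_at were called at E11.5 (-1.45 and -1.57) and E12.5 (-1.54 and -1.72). The remaining one, 1427454_at, gave 0.02, -0.29, -0.29 and -0.23 from E10.5 to E13.5 and was called at none of the 4 stages, so that the averaged Hoxc6 value holds probe sets that behave differently.

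Hoxc8, in the middle of the cluster and known from mouse mutants for its part in patterning the thoracic skeleton and brachial motor neurons, did not separate the limbs at this threshold. Its hindlimb differences were 0.57 ± 0.27 at E10.5 (adjusted p = 0.166), 1.09 ± 0.27 at E11.5 (adjusted p = 0.0106), then 0.27 ± 0.26 at E12.5 (adjusted p = 0.575) and 0.93 ± 0.26 at E13.5 (adjusted p = 0.0189). At E11.5 the forelimb arrays read 6.05, 5.48, 5.84 and 5.27 and the hindlimb arrays 8.01, 6.74, 6.43, 6.41 and 6.14. At E13.5 the forelimb arrays read 6.79, 6.39, 5.81, 6.22 and 6.53 and the hindlimb arrays 7.57, 7.09, 7.46, 6.87 and 7.41. The arrays of the limbs did not overlap at these 2 stages although the gene was not called, and without hindlimb E11.5 replicate 1 the E11.5 difference was 0.77 (adjusted p = 0.0792).

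Hoxc9, which is active from thoracic levels in the trunk, was higher in hindlimb. At E10.5 its forelimb levels were 6.38, 6.47, 6.47, 6.60 and 6.29 and its hindlimb levels 8.39, 8.29, 8.66 and 8.28. At E13.5 the forelimb arrays read 6.17, 6.11, 6.11, 6.26 and 5.97 and the hindlimb arrays 7.06, 6.81, 6.88, 6.96 and 7.19. The limbs did not overlap at any stage, but the distance between them narrowed. It was 1.96 ± 0.10 at E10.5 (a fold change of 3.89, adjusted p = 1.22e-18), 1.72 ± 0.10 at E11.5 (adjusted p = 1.91e-16), 1.77 ± 0.10 at E12.5 (adjusted p = 6.84e-18) and 0.86 ± 0.10 at E13.5, a fold change of 1.81 that missed the fold threshold (adjusted p = 3.15e-08).

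Hoxc10, a gene of lumbar levels, separated the limbs by the largest difference of the 7. At E10.5 its forelimb levels were 5.46, 5.32, 4.98, 4.78 and 5.37 and its hindlimb levels 10.21, 10.15, 10.22 and 10.32. At E11.5 the forelimb arrays read 5.31, 5.23, 5.36 and 5.16 and the hindlimb arrays 10.25, 10.36, 10.28, 10.40 and 10.32. At E13.5 the forelimb arrays read 3.81, 4.03, 3.74, 4.14 and 3.75 and the hindlimb arrays 9.55, 9.11, 9.14, 9.33 and 9.41. The hindlimb was uniformly high and the forelimb uniformly low, with no array between. From E10.5 to E13.5 the difference was 5.05 ± 0.26, 5.06 ± 0.26, 5.46 ± 0.24 and 5.41 ± 0.24, fold changes of 33.0, 33.4, 43.9 and 42.6 (adjusted p = 3.73e-19, 4.18e-19, 2.33e-21 and 4.22e-21). The forelimb levels are low on an array whose values run from 2.29 to 14.79 with a median of 5.31, and no detection calls were used, so that these values do not show whether Hoxc10 was transcribed in forelimb.

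Hoxc13, which is required in mice for hair and nails, showed no call between the limbs. Its differences were -0.55 ± 0.20 at E10.5 (adjusted p = 0.0529), -0.76 ± 0.20 at E11.5 (adjusted p = 0.0118), -0.21 ± 0.18 at E12.5 (adjusted p = 0.532) and -0.02 ± 0.18 at E13.5 (adjusted p = 0.973). At E11.5 the forelimb arrays read 5.58, 6.44, 6.09 and 6.11 and the hindlimb arrays 5.08, 5.04, 5.52, 5.25 and 5.57. These arrays did not overlap, and the highest hindlimb array was close to the lowest forelimb array. Hoxc13 has 1 probe set, whose values of 4.45 to 6.62 over all arrays lie around the array median of 5.31, so that without detection calls the values do not show whether the gene was transcribed in either limb.

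**Figure D2:**
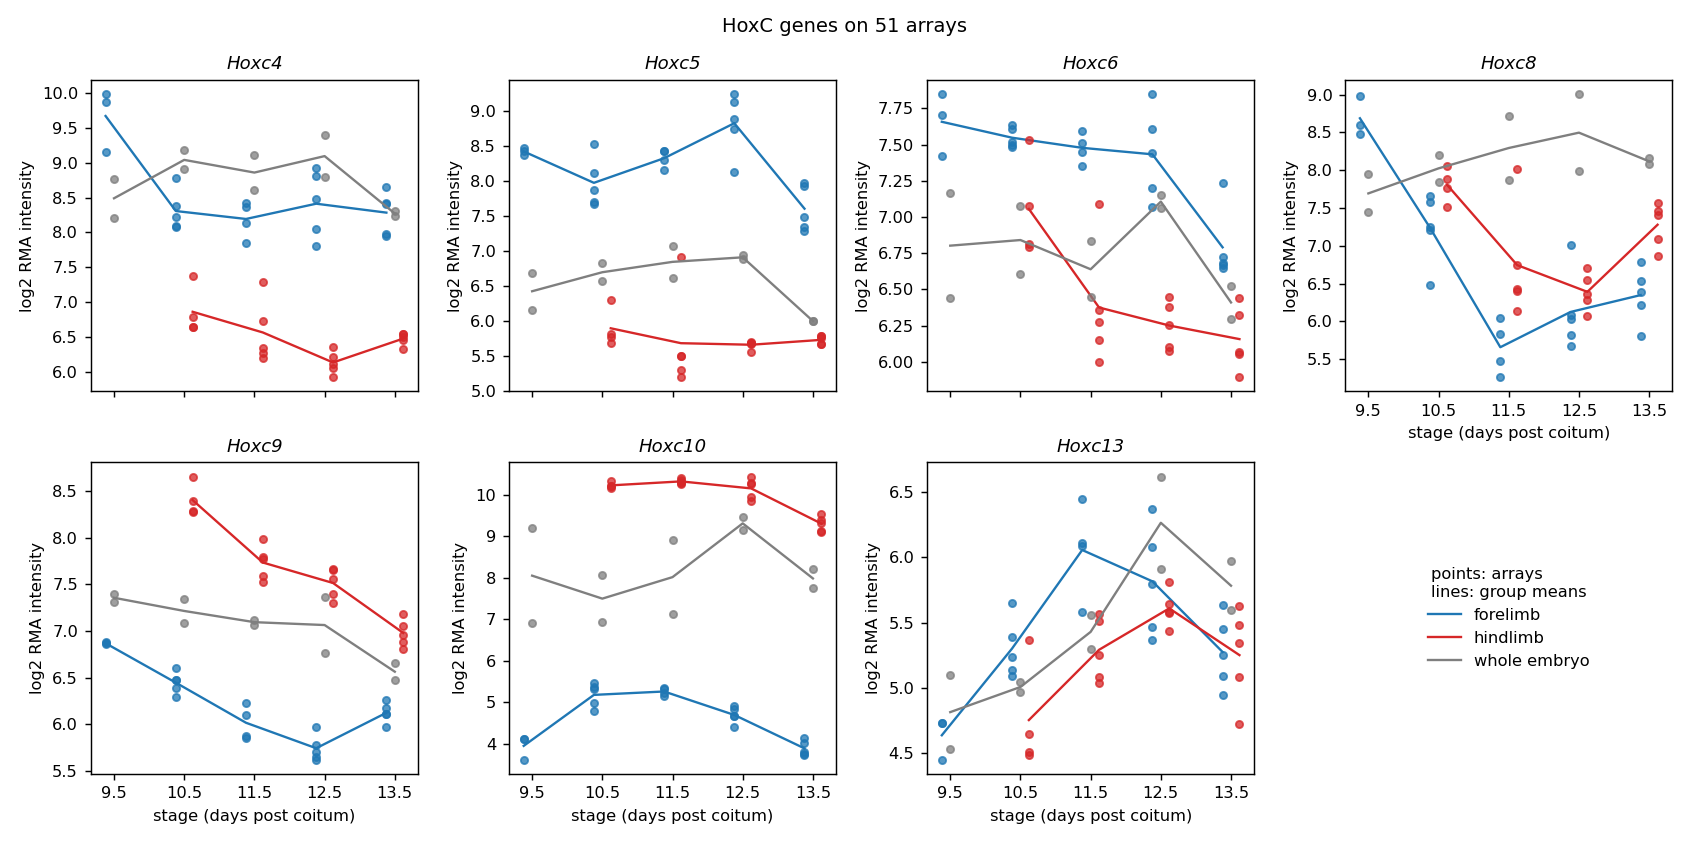
Log2 RMA intensity of the 7 HoxC genes (y axes differ between panels and levels are not comparable between genes) against stage in days post coitum, with 1 point per array and lines through group means for forelimb, hindlimb and whole embryo. Forelimb lies above hindlimb for Hoxc4 and Hoxc5 and below it for Hoxc9 and Hoxc10, with Hoxc10 at 9.11 to 10.44 in hindlimb and 3.62 to 5.46 in forelimb.

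The hindlimb is morphologically younger than the forelimb of the same embryo, and the study therefore also considered the adjacent stage when defining limb-specific genes. It did so through calls of each limb against whole embryo, whereas here each hindlimb was tested directly against the forelimb of the preceding stage. These comparisons use the same hindlimb arrays and are not independent of those above. Called were 4 of 7 HoxC genes for E10.5 hindlimb over E9.5 forelimb (6.1% of all genes), 5 for E11.5 over E10.5 (0.989%), 5 for E12.5 over E11.5 (0.28%) and 6 for E13.5 over E12.5 (1.46%). Hoxc10 differed by 6.27 ± 0.30, 5.14 ± 0.24, 4.89 ± 0.26 and 4.61 ± 0.24 in this order. Hoxc5 differed by -2.53 ± 0.25, -2.30 ± 0.20, -2.67 ± 0.22 and -3.10 ± 0.20. The orders of forelimb and hindlimb for Hoxc4, Hoxc5, Hoxc9 and Hoxc10 were thus the same against the younger forelimb as against the forelimb of the same stage. Hoxc8 differed by -0.88, -0.49, 0.73 and 1.15 in the same order, so that its sign was not the same throughout. It was called in 1 comparison between limbs, E13.5 hindlimb over E12.5 forelimb, at 1.15 ± 0.26 (adjusted p = 0.000305). That call was lost without forelimb E12.5 replicate 3 or 5 or hindlimb E13.5 replicate 1, 3 or 5 (1.04 to 1.12, adjusted p = 0.00109 to 0.00201), and without both arrays of doubtful label.

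Whether a limb difference changed with stage was tested as the E13.5 difference minus the E10.5 difference. Hoxc9 was the 1 of 7 HoxC genes called, against 0.918% of all genes, with a change of -1.10 ± 0.14 (adjusted p = 4.37e-07). Its forelimb mean went from 6.44 ± 0.12 (SD, n = 5) to 6.12 ± 0.11 (n = 5), and its hindlimb mean from 8.40 ± 0.18 (n = 4) to 6.98 ± 0.15 (n = 5). For the other 6 genes the change was between -0.36 and 0.52 with adjusted p of 0.207 or more. Both means fell, the hindlimb mean by more, so that the narrowing of the Hoxc9 difference lay in the hindlimb.

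Against whole embryo of the same stage, the HoxC genes divided the limbs in 3 ways. The averaged Hoxc5 value was up-regulated in forelimb at all 5 stages, Hoxc10 was down-regulated in forelimb at all 5 stages and up-regulated in hindlimb at 3 of 4, and Hoxc4 was down-regulated in hindlimb at all 4. In forelimb from E9.5 to E13.5, 2, 2, 4, 4 and 3 of the 7 genes were called, where 3.69%, 13.9%, 15.3%, 14% and 13.7% of all genes were. In hindlimb, 3 were called at E10.5 (13.2% of all genes), 4 at E11.5 (15.7%) and 2 at E13.5 (14.4%), in either direction. At E12.5 3 were called lower and 0 higher, where 988 of all 18194 genes (5.43%) were lower and 1293 higher. The whole embryo holds every axial level and had the higher levels of the neural markers, and HoxC genes are also known from the spinal cord. The part of this in the limb differences was not tested.

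**Figure D3:**
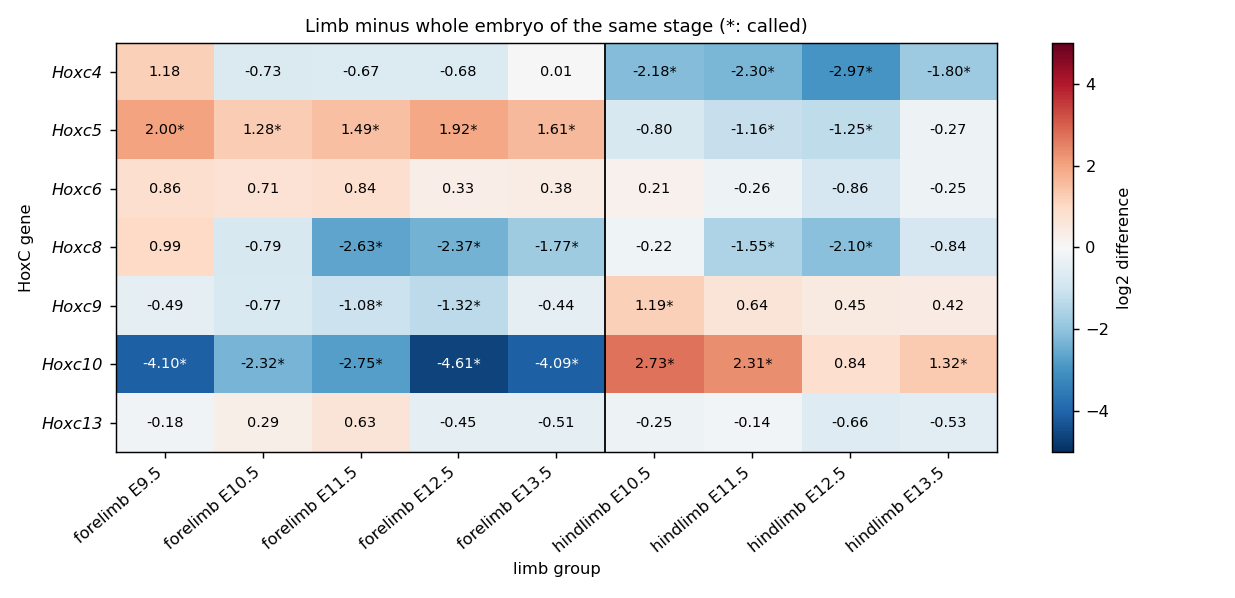
Log2 difference of each limb group from whole embryo of the same stage (colour and printed value, red higher in limb) for the 7 HoxC genes in rows and the 9 limb groups in columns, with an asterisk where the gene was called. Hoxc10 runs from -4.61 in the E12.5 forelimb to 2.73 in the E10.5 hindlimb, and Hoxc5 is called higher in all 5 forelimb groups and lower in the E11.5 and E12.5 hindlimb.

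Hoxc10 levels in whole embryo varied between the 2 embryos of a stage, with 9.19 and 6.91 at E9.5, 6.93 and 8.07 on the next day and 7.12 and 8.92 at E11.5. The forelimb differences were nevertheless -4.10 ± 0.35, -2.32 ± 0.32, -2.75 ± 0.34, -4.61 ± 0.32 and -4.09 ± 0.32 from E9.5 to E13.5. All forelimb arrays lay below all whole embryos. In hindlimb the differences were 2.73 ± 0.34 at E10.5 and 2.31 ± 0.32 at E11.5, then 0.84 ± 0.32 (adjusted p = 0.0256, not called) at E12.5 and 1.32 ± 0.32 at E13.5 (adjusted p = 0.000546). The E11.5 call was lost without whole embryo replicate 1 (1.41, adjusted p = 0.00157), and the E13.5 call without either whole embryo or without hindlimb replicate 1 or 5 (1.08 to 1.56, adjusted p = 0.00118 to 0.0344).

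Hoxc5 in forelimb exceeded whole embryo by 2.00 ± 0.29, 1.28 ± 0.27, 1.49 ± 0.28, 1.92 ± 0.27 and 1.61 ± 0.27 from E9.5 to E13.5. The whole-embryo pairs read 6.69 and 6.16 at E9.5 and 6.94 and 6.88 at E12.5, below every forelimb array of either stage. At E10.5 and E11.5 this excess lay mostly in 1 probe set, 1450832_at (3.03 and 3.14), where 1439885_at read 0.27 and 0.75 and 1456301_at 0.54 and 0.56, neither called. With the probe set of highest mean, 1439885_at, in place of the average, the forelimb calls at E10.5 (adjusted p = 0.471) and E11.5 (adjusted p = 0.0464) were lost. In hindlimb the average was lower by -1.16 ± 0.27 at E11.5 (adjusted p = 0.000261) and -1.25 ± 0.27 at E12.5 (adjusted p = 0.000113), and not called at E10.5 (-0.80) and E13.5 (-0.27). Some of these calls rested on single arrays. Without whole embryo replicate 1 the forelimb calls at E10.5 (1.15, adjusted p = 0.0069) and E11.5 (1.26, adjusted p = 0.00365) were lost. The hindlimb call at E11.5 was lost without either whole embryo or without hindlimb replicate 3 or 4 (-0.94 to -1.39, adjusted p = 0.00102 to 0.0236), and that at E12.5 without either whole embryo (-1.22 and -1.28, adjusted p = 0.00483 and 0.00254).

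Hoxc4 in hindlimb was lower than whole embryo by -2.18 ± 0.27, -2.30 ± 0.26, -2.97 ± 0.26 and -1.80 ± 0.26 from E10.5 to E13.5, and its forelimb differences of 1.18, -0.73, -0.67, -0.68 and 0.01 from E9.5 to E13.5 were not called. Without whole embryo E9.5 replicate 1 or forelimb E9.5 replicate 3, Hoxc4 was called at E9.5 (1.46 and 1.44, adjusted p = 0.000926 and 0.000344), and without the former also Hoxc6 (1.22, adjusted p = 0.000427). Hoxc9 was higher than whole embryo in the E10.5 hindlimb (1.19 ± 0.13, but 0.77 and not called under quantile normalization) and lower in the E11.5 and E12.5 forelimb (-1.08 ± 0.13 and -1.32 ± 0.13). Hoxc6 and Hoxc13 were not called against whole embryo in any limb group, with differences of -0.86 to 0.86 and -0.66 to 0.63.

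Hoxc8 was down-regulated against whole embryo in forelimb from E11.5 to E13.5 and in the E11.5 and E12.5 hindlimb. Its difference from whole embryo was 0.99 ± 0.37 in the E9.5 forelimb (adjusted p = 0.0358, not called), and then -0.79, -2.63, -2.37 and -1.77 to E13.5. In hindlimb it was -0.22, -1.55, -2.10 and -0.84 from E10.5 to E13.5. Some of these calls rested on 1 whole embryo, and were lost for forelimb E13.5 without replicate 2 (-1.73, adjusted p = 0.00156), for hindlimb E11.5 without replicate 2 (-1.12, adjusted p = 0.0302) and for hindlimb E12.5 without replicate 2 (-1.59, adjusted p = 0.00217).

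**Figure D4:**
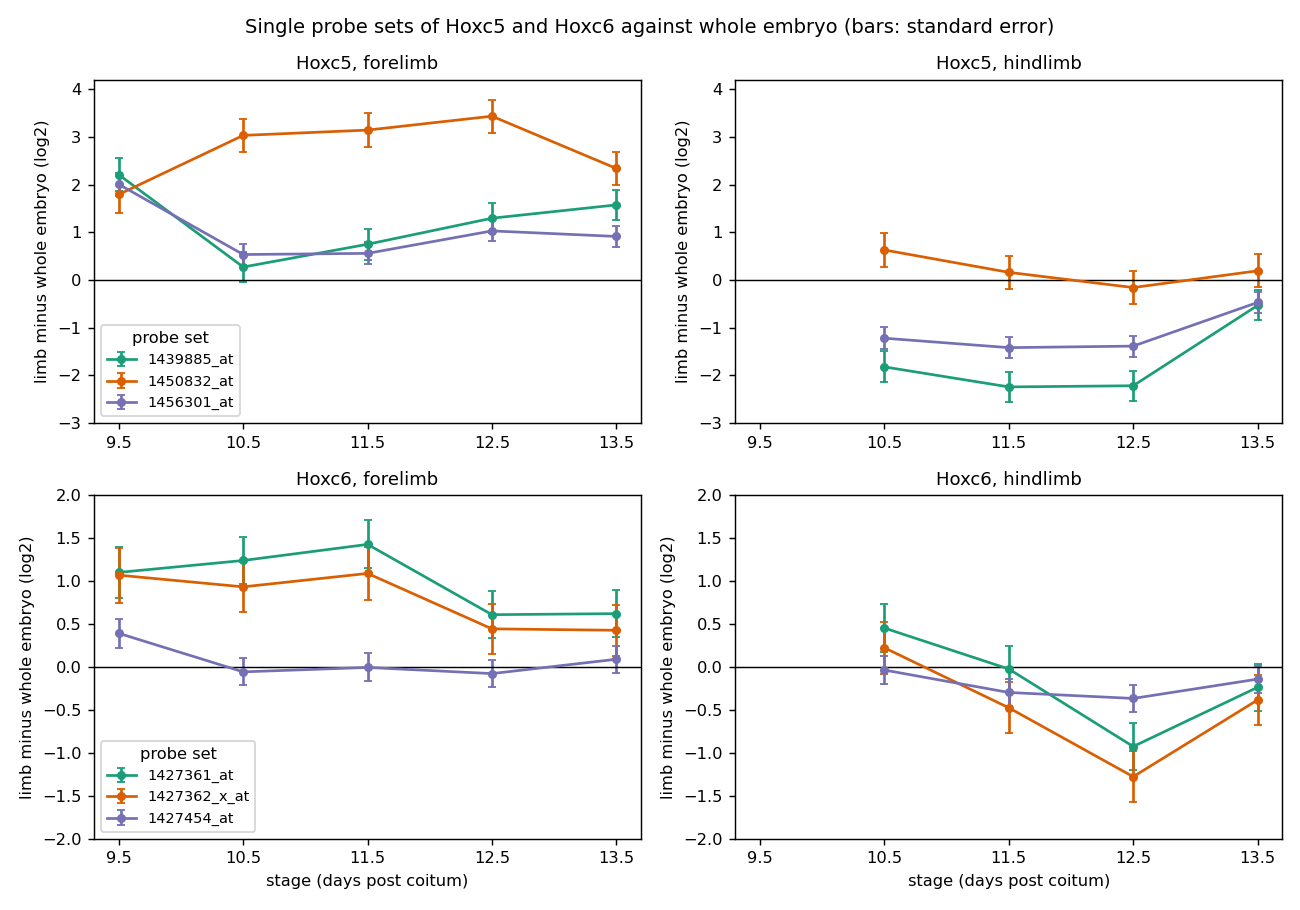
Limb minus whole embryo of the same stage (log2 difference, bars of 1 standard error) against stage in days post coitum for each of the 3 probe sets of Hoxc5 and of Hoxc6, with forelimb on the left and hindlimb on the right. In forelimb the Hoxc5 probe set 1450832_at reads 3.03 at E10.5 where the others read 0.27 and 0.54, and the Hoxc6 probe set 1427454_at stays near 0.

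The Hoxc5 probe sets, alike between the limbs, disagreed across stages. From E9.5 to E10.5 in forelimb 1439885_at fell by 1.52 (adjusted p = 7.64e-06) and 1456301_at by 1.08 (adjusted p = 6.83e-06), whereas 1450832_at rose by 1.25 (adjusted p = 0.000543). The averaged Hoxc5 value for this step, -0.45 ± 0.24 (adjusted p = 0.0953), is therefore the mean of opposite readings. Against whole embryo at E9.5 all 3 probe sets were high in forelimb, and from E10.5 1450832_at was farthest above whole embryo in forelimb. In hindlimb it read 0.63, 0.16, -0.16 and 0.19 against whole embryo over the 4 stages, none called, and so lay on the other side of 0 from the averaged value at all but E12.5. The other probe sets, 1439885_at and 1456301_at, were below whole embryo in hindlimb at each of them. The step from E9.5 to E10.5 also crosses the 2 sets of arrays.

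Successive stages of 1 limb were also compared. In forelimb, 3 of 7 were called from E9.5 to E10.5 (7.54% of all genes), 1 from E10.5 to E11.5 (2.07%), 0 from E11.5 to E12.5 (0.764%) and 1 from E12.5 to E13.5 (2.71%). In hindlimb 0 of 7 were called at each step from E10.5 on, against 2.32%, 0.824% and 1.95% of all genes. At an unadjusted p under 0.05 in limma, 3 of 7 passed from E11.5 to E12.5 in forelimb and 4, 2 and 3 in the hindlimb steps. With so few genes called over all, a count of 0 of 7 is no result about the HoxC genes.

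Hoxc8 showed the steepest course. Its forelimb levels were 8.98, 8.48 and 8.60 at E9.5, followed by 7.21, 7.24, 7.58, 7.66 and 6.48 on the next day and 6.05, 5.48, 5.84 and 5.27 at E11.5. The 3 groups did not overlap, and it fell by 1.45 ± 0.30 over the first step (adjusted p = 6.22e-05) and by 1.58 ± 0.27 over the next (adjusted p = 1.81e-05). The first call was lost without forelimb E9.5 replicate 1 (-1.30, adjusted p = 0.00143), and the first step crosses the 2 sets of arrays. In hindlimb it changed by -1.06 ± 0.27 from E10.5 to E11.5 (adjusted p = 0.0023), which did not pass, and by -1.38 (adjusted p = 2.44e-05), which did, without hindlimb E11.5 replicate 1.

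Hoxc4 fell by 1.37 ± 0.23 from the E9.5 to the E10.5 forelimb (adjusted p = 2.54e-06), and over the same step the Hoxc10 signal differed by 1.23 ± 0.28 (adjusted p = 0.00027). Its means of 3.95 and 5.18 both lie below the array median of 5.31 and are not shown to be above background. The Hoxc10 call was lost without forelimb E9.5 replicate 2 (1.06, adjusted p = 0.0056) or E10.5 replicate 1 (1.16, adjusted p = 0.00102). This step crosses the 2 sets of arrays. Hoxc5 fell by 1.22 ± 0.20 from E12.5 to E13.5 in forelimb (adjusted p = 2.51e-06). Its probe sets read -0.89 at 1439885_at, -1.85 at 1450832_at and -0.93 at 1456301_at, and with 1439885_at, the one of highest mean, in place of the average the call was lost (adjusted p = 0.00173). Hoxc9 changed by -0.67 ± 0.10 and -0.54 ± 0.10 in hindlimb from E10.5 to E11.5 and from E12.5 to E13.5 (adjusted p = 1.75e-06 and 2.03e-05), both under a 2-fold change.

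A pair of hindlimb arrays stood apart in the anterior genes. On E11.5 replicate 1, Hoxc4 read 7.29, Hoxc5 6.92, Hoxc6 7.09 and Hoxc8 8.01, where the other 4 arrays read 6.19 to 6.73, 5.20 to 5.50, at most 6.36 and 6.14 to 6.74. Its Hoxc10 level of 10.25 was close to the 10.28 to 10.40 of the others. The mean of the 10 neural markers on it was 4.81, within the 4.74 to 5.49 of the other arrays, and that of the 8 muscle markers was 8.16, above their 7.17 to 8.02. On E10.5 replicate 3, Hoxc4 read 7.37, Hoxc5 6.31 and Hoxc6 7.53, against 6.64 to 6.78, 5.69 to 5.82 and 6.80 to 7.08. On this array the neural marker mean was 7.45 against 4.16 to 4.38, the muscle marker mean 6.75 against 4.84 to 5.72, and the limb mesenchyme mean 9.44 against 9.77 to 9.83. The part of these tissues in its HoxC levels was not tested. With both arrays left out, 4, 5, 5 and 3 HoxC genes were called between the limbs from E10.5 to E13.5, as with them.

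**Figure D5:**
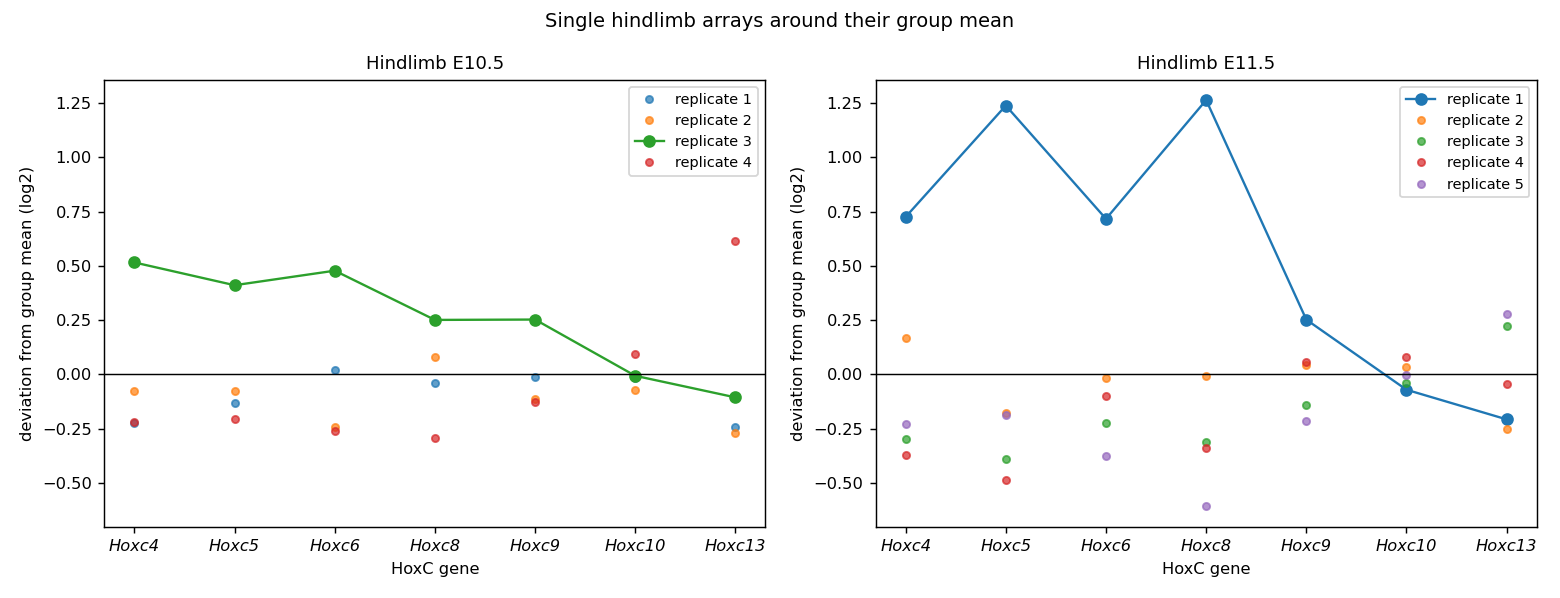
Deviation of each hindlimb array from its group mean (log2) for the 7 HoxC genes at E10.5 (left, 4 arrays) and E11.5 (right, 5 arrays), with the array that stands apart joined by a line. Replicate 1 at E11.5 lies far above its group for Hoxc4, Hoxc5, Hoxc6 and Hoxc8 and close to it for Hoxc10 and Hoxc13, and replicate 3 at E10.5 lies above its group for Hoxc4 to Hoxc9.

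The genes of the other Hox clusters whose paralogue numbers lie in the range from Hoxc4 to Hoxc13 were compared between the limbs in the same way. Of the HoxA genes 7 of 8 were measured, and Hoxa10 alone was called, at E13.5 (1.02 ± 0.15). Of the HoxB genes 6 of 7 were measured: Hoxb9 was higher in hindlimb at both E10.5 (1.60 ± 0.20) and E11.5 (1.20 ± 0.20), Hoxb5 lower at E10.5, E12.5 and E13.5 (-1.41 ± 0.28, -1.53 ± 0.26 and -1.52 ± 0.26) and Hoxb4 lower at E12.5 (-1.10 ± 0.16). Of the HoxD genes 6 of 7 were measured, and Hoxd8 was called at E12.5 (-1.01 ± 0.10). Of the Pbx, Meis and Pknox genes, whose proteins bind DNA together with Hox proteins, 8 of 9 were measured and 0 were called in any of the 4 comparisons. At each stage at most 0.148% of all genes were called higher in hindlimb and at most 0.462% lower. A count of 0 among 8 genes is therefore no result about these cofactors. The median difference of the 7 HoxA genes was -0.27, 0.18, 0.24 and 0.56, of the 6 HoxB genes 0.00, -0.08, -0.27 and -0.26, and of the 6 HoxD genes -0.72, -0.56, -0.67 and -0.09, where the median of all genes was 0.03, 0.00, -0.01 and 0.00. The difference between clusters was not tested.

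Markers of other tissues gave few calls between the limbs. None of the 10 neural, 8 limb mesenchyme and 5 measured erythroid markers was called at any stage. Of the 8 muscle markers Myf5 was called at E10.5 (lower in hindlimb) and Pax3 (higher) and Tnnt1 (lower) at E11.5, and of the 8 surface ectoderm markers Krt15 was called lower at E11.5 and E12.5. On the mean of the 8 muscle markers, every hindlimb array lay below every forelimb array from E11.5 to E13.5. The ranges were 7.17 to 8.16 against 8.44 to 8.60, 8.17 to 8.52 against 8.88 to 9.10, and 8.69 to 8.90 against 9.24 to 9.44. The ectoderm mean was likewise lower at E11.5 (7.58 to 7.76 against 7.84 to 7.99) and E12.5 (7.79 to 7.89 against 7.98 to 8.08). The part of these tissues in the HoxC differences was not tested.

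Over all 14 groups, the order of the levels was as follows. For Hoxc5 all 5 forelimb groups (means of 7.61 to 8.83) stood above all whole embryos (at most 6.91), with a gap between their arrays, and the hindlimb means (5.66 to 5.89) were lowest, next to the E13.5 whole embryo. For Hoxc10 the order was inverted, with the hindlimb at E11.5, E10.5 and E12.5 on top (10.15 to 10.32), the E13.5 hindlimb (9.31) among the whole embryos (7.50 to 9.31) and the forelimb below a gap (3.89 to 5.26). For Hoxc4 the 4 hindlimb groups (6.13 to 6.86) lay apart from all others (8.19 to 9.67). For Hoxc9 the E10.5 hindlimb was highest, apart from the E11.5 hindlimb that followed, and the forelimb at E13.5, E11.5 and E12.5 was lowest. For Hoxc6, Hoxc8 and Hoxc13 each of the 13 pairs of neighbouring groups overlapped in their arrays, and for Hoxc4, Hoxc5, Hoxc9 and Hoxc10 12, 11, 10 and 10 of 13 did. The means spanned 6.43 for Hoxc10, 3.54 for Hoxc4, 3.17 for Hoxc5, 3.03 for Hoxc8 and 2.66 for Hoxc9 on the log2 scale, and at most 1.63 for Hoxc13 and Hoxc6.

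The genes whose 14 group means ran most like those of a HoxC gene were sought among 8733 genes whose means span at least 1 on the log2 scale. Groups share litters and array sets, so the correlations are descriptions. Hoxc10 ran with Pitx1 (Pearson's r = 0.88), Isl1 (0.79) and Tbx4 (0.69), Hoxc9 with Hoxb9 (0.85), Pitx1 (0.77) and Ano4 (0.71), and Hoxc5 with Tbx5 (0.92), Hoxb4 (0.81) and Hs3st3a1 (0.74). Nearest to Hoxc4 were Hoxb3 (0.90), Hoxb5 (0.87) and Hoxa2 (0.86), and to Hoxc6 Hoxb4 (0.91), Gpr4 (0.81) and Hoxb2 (0.81). Hoxc8 ran with Pbx3 (0.91), Upk3b (0.91) and Plekha2 (0.90), and Hoxc13 with Tmem169 (0.92), Six2 (0.92) and Cyp2s1 (0.91). Among the HoxC genes themselves, Hoxc5 and Hoxc10 ran opposite (r = -0.91), Hoxc5 and Hoxc6 together (0.87), and Hoxc9 and Hoxc10 together (0.81).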

How the data were processed

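Total RNA was labelled in a double round of amplification, with 1 sample per array. The authors ran RMA with its defaults, after correcting a blemish on 1 whole-embryo array from its replicates. The deposited values are RMA intensities on a linear scale, of which log2 was taken here. Of 45101 probe sets 35890 had a gene in the platform's annotation, 932 of them with several symbols, which were left out. All 51 arrays in 14 groups were fitted together with limma 3.58.1 (R 4.3.3, 37 residual degrees of freedom), and p-values were Benjamini-Hochberg adjusted over all 18194 genes within a comparison. Single probe sets were adjusted over 34958. The test was checked on simulated data. The HoxC genes, the lists of other genes and the tests were chosen with earlier results of these data known. Named are all measured HoxC genes, up to 3 called genes per list, the 5 nearest measured genes on each side and the 3 genes most alike. Alternatives were the probe set of highest mean, own groups alone, quantile normalization, a filter on low genes, other groupings of 2 arrays, other thresholds, a variance trend, a replicate block and leaving out arrays. Same-numbered fore- and hindlimb arrays deviated together at E12.5 (r of 0.25 to 0.66 over 5 pairs) and E13.5 (0.33 to 0.48), but not in every pair at E10.5 and E11.5. The main tests used no pairing at any stage, and the replicate block was an alternative only.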

Additional observations from a re-analysis of the deposited data

Results flagged for a closer look

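Each of the 7 genes was tested in each group of 4 or more arrays. In 3 of these 56 sets of values 1 array lay far from the others by Dixon's test at the 95% level, where chance gives about 5%. Hoxc5 in the E11.5 hindlimb read 6.92 on replicate 1 against 5.20 to 5.50 on the other arrays. Hoxc5 in the E12.5 hindlimb read 5.56 on replicate 4 against 5.67 to 5.70, a small distance in a tight group. Hoxc6 in the E13.5 forelimb read 7.24 on replicate 5 against 6.65 to 6.72. The hindlimb excess of Hoxc9 differed between E13.5 and E10.5 by -1.10, as tested in limma.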

How the results depend on the processing

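Counts are of the 7 HoxC genes. With the 2 doubtful arrays grouped by their other labels, the calls between same-stage limbs were 2, 2, 0 and 1 from E10.5 to E13.5. Against the preceding forelimb stage they were then 2 (E11.5 hindlimb), 1 (E12.5) and 3 (E13.5), against whole embryo 0, 0, 1 and 1 in forelimb from E9.5 to E12.5 and 1, 2 and 0 in hindlimb at E10.5, E11.5 and E13.5, 1 and 0 over the first and last forelimb steps, and 0 for the change. With the probe set of highest mean the counts were 1 (E10.5 forelimb over whole embryo) and 0 (E13.5 over E12.5 forelimb). With own groups alone they were 3 between the E11.5 limbs, 0 for E9.5 forelimb over whole embryo and 2 for E11.5 hindlimb over whole embryo. Quantile normalization gave 5 for E10.5 forelimb over whole embryo and 1 for E11.5 over E10.5 hindlimb. At an adjusted p under 0.05 with no fold threshold, 6 passed between the E13.5 limbs, 6, 6 and 7 over whole embryo at the first 3 forelimb stages, 7 and 4 in hindlimb at E12.5 and E13.5, 5, 3 and 5 over the first, second and last forelimb steps, and 4 and 3 over the first and last hindlimb steps. With the replicate block, which changed no call between same-stage limbs, the counts were 1 for E10.5 forelimb, 2 for E11.5 hindlimb and 1 for E13.5 hindlimb over whole embryo, although whole embryos share only a number with limbs. Leaving out hindlimb E10.5 replicate 3 and E11.5 replicate 1, chosen after seeing the data, gave 1 for E11.5 over E10.5 hindlimb. Hoxc5 was reversed by its probe set 1450832_at alone, at 1.25 from E9.5 to E10.5 in forelimb and 0.16 for E11.5 hindlimb over whole embryo, and it also read 0.63 and 0.19 for hindlimb at E10.5 and E13.5, where the averages below 0 were not called. In these cases the cause was not tested.

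Leaving out 1 array at a time kept 15 of 25 counts. The counts ranged over 5 to 6 for E13.5 hindlimb over E12.5 forelimb, 2 to 4, 1 to 2, 3 to 4 and 2 to 3 for forelimb over whole embryo at E9.5, E10.5, E11.5 and E13.5, 2 to 4, 1 to 3 and 1 to 2 for hindlimb at E11.5, E12.5 and E13.5, 2 to 3 for E10.5 over E9.5 forelimb and 0 to 1 for E11.5 over E10.5 hindlimb. All other counts, also with a variance trend or a filter at the median gene (which drops Hoxc13), stayed within 1.5 times. Whole-embryo groups of 2 arrays, low forelimb levels of Hoxc10 and the absence of detection calls limit the precision.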
